A study of Mus musculus with 10 samples.

Results

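Fibroblasts of the brain's coverings and vessels were examined in single-cell RNA sequencing of the medial prefrontal cortex of mice of rank 1 and rank 4 in a social hierarchy. The cells were chosen by measured values: a kept cell had at least 6 UMIs (tagged RNA molecules counted once each) summed over Dcn, Col1a1, Col1a2, Col3a1, Lum, Slc6a13 and Igf2. At least 1 of these UMIs had to come from a collagen gene (Col1a1, Col1a2 or Col3a1). Cells with any UMI of the neuronal genes Slc17a7, Gad1 or Gad2, with over 3 UMIs of Cldn5, Gja1, Mog and Pdgfrb, or with over 3 UMIs of Acta2 and Tagln, were left out. A kept cell had at least 500 genes and at most 15% mitochondrial UMIs. The rule found 50 fibroblasts among 48816 kept cells, or 0.102% (95% exact Clopper-Pearson interval 0.0760 to 0.135%).

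There were 5 libraries of each rank, all from male C57BL/6N mice over 2 months old, with brains taken 1 day after the last tube test. The tube test ranks cage mates by which mouse withdraws from a narrow tube; rank 1 is the dominant end of the order and rank 4 the subordinate end. The labels name no genotype or drug that differed between the ranks. Each library pooled tissue punches of 2 or 3 mice that had been digested with papain at 37 °C, so the library was the replicate and the fibroblasts of 1 library shared their mice and their preparation.

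Brain fibroblasts are mesenchymal cells of the leptomeninges (the arachnoid and the pia) and of the spaces around larger vessels that enter the cortex from the surface. They make collagens, proteoglycans and basement membrane proteins, and those of the leptomeninges secrete retinoic acid and insulin-like growth factor signals and carry solute transporters at the border between blood, cerebrospinal fluid and brain. A punch of cortical tissue reaches them at the pial surface and along penetrating vessels.

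The libraries held 4442750 to 29278466 UMIs over 1838 to 15826 deposited cells. The fibroblasts held 98141 UMIs in all, with a median of 1475 per cell (812 to 5582), a median of 956 genes and a median of 4.45% mitochondrial UMIs, against medians of 1672 UMIs and 1056 genes over all kept cells. Replicate 1 of both ranks held the deeper fibroblasts, with a median of 4098 UMIs over 2 cells in rank 1 and of 3488 UMIs over 8 cells in rank 4. The file headers name version 3.1.0 for replicates 1 to 3 of either rank and version 4.0.0 for replicates 4 and 5, and the gene lists of the versions differ. Of 48527 distinct kept barcodes, 288 were found in more than 1 library, and 0 of these belonged to a fibroblast. The doublet caller Scrublet marked 0 of the 50 fibroblasts.

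The rule's limits set which cells were members. Of the members, 38 had a marker sum of at least 10 UMIs, 8 had a sum of 6 or 7, the median was 13 and the highest was 64. Just outside, 6 kept cells met all other criteria with a sum of 4 or 5. Of 93 kept cells with a sum of at least 6 and a collagen UMI, 43 were left out, 34 of them for a neuronal UMI, 8 for the endothelial, astrocyte, oligodendrocyte and pericyte limit and 4 for the smooth muscle limit, some for more than 1 reason. Another 19 kept cells had a sum of at least 6 but no collagen UMI. In the pericyte class described below, 12 cells had a fibroblast marker sum of at least 6, and these lie among the cells left out.

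Fibroblast genes outside the rule were mostly detected. Of 14 such genes, 13 had a UMI in the fibroblasts, 6 were at least 10-fold higher there than in all other kept cells and 3 (Mgp, Cdh11 and Slc47a1) were lower. Of all 24719 genes measured, 42.4% had a fibroblast UMI and 0.789% were at least 10-fold higher. Pdgfra, the receptor that marks fibroblasts and oligodendrocyte precursors, had 47 UMIs in 26 cells. Mgp, Cdh11 and Col5a1 had 1 UMI each, and Slc47a1, a cation exporter of arachnoid and pial cells, had 0 UMIs in 50 cells. Endothelial markers had 12 UMIs in 12 cells and smooth muscle markers 2 UMIs, with Acta2, Myh11, Cnn1 and Mustn1 at 0. The rule itself limited Cldn5 of the endothelial list and Acta2 and Tagln of the smooth muscle list. All 5 markers of perivascular macrophages (Mrc1, Cd163, Lyve1, Pf4 and F13a1) were at 0.

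Low counts of other classes' markers were found in many cells. A UMI of the astrocyte list was in 35 of the 50 cells, of the oligodendrocyte list in 27, of the pericyte list without Vtn in 26, of the erythroid list in 26, of the excitatory neuron list in 24 (41 UMIs), of the microglia list in 19 (26 UMIs) and of the inhibitory neuron list in 14 (21 UMIs). The rule set Slc17a7, Gad1 and Gad2 to 0 and limited Gja1, Mog and Pdgfrb. A UMI of the ependymal list was in 30 cells (62 UMIs, at least 6 of them in 2 cells, 0 to 1560 CPM in rank 1 libraries and 163 to 1747 CPM in rank 4 libraries, where CPM are UMIs scaled to a total of 1e+06 for the same cells), all of it Rarres2, with Foxj1, Tmem212, Ccdc153 and Dynlrb2 at 0. A UMI of the Schwann cell list was in 19 cells (26 UMIs), with Ncmap and Cdh19 at 0. Vtn was left out because the fibroblasts also carried it. The rest of the pericyte list summed to 0 to 1413 CPM in rank 1 libraries and to 307 to 930 CPM in rank 4 libraries, and 4 cells had at least 6 of its UMIs. The cell of rank 1 replicate 5 with 6 Rgs5 and 18 Vtn UMIs had 0 Dcn UMIs and 1 Apod UMI. Oligodendrocyte markers reached 6 UMIs in 3 cells (0 to 3148 CPM in rank 1 libraries, 116 to 898 CPM in rank 4 libraries). Astrocyte markers reached 6 UMIs in 2 cells (0 to 1560 CPM and 769 to 1921 CPM), with Aqp4 and Gfap at 0. Haemoglobin and other erythroid markers reached 6 UMIs in 6 cells (0 to 1464 CPM and 0 to 1539 CPM), with Alas2 at 0. The part of these RNAs in the results below was not tested.

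The genes of the rule are described first, as levels only, because they chose the cells. Levels are given as CPM over the summed UMIs of a class, with an exact Poisson interval that covers counting error only. The comparison classes were kept cells, outside the fibroblasts, with at least 6 UMIs of pericyte, smooth muscle or endothelial markers and at least 3 times the UMIs of each of the other lists. The excitatory class, which should lack fibroblast RNA, had at least 3 Slc17a7 UMIs and none of Gad1 or Gad2. These are ranges of marker counts and not types.

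Dcn, which encodes the small proteoglycan decorin (GRCm38 chromosome 10, 97479609 to 97518143, plus strand), stood at 2629 CPM in fibroblasts (2318 to 2970), 45.9 CPM in the pericyte class and 0.866 CPM in the endothelial class. In rank 1 replicates 1 to 5 its level was 4880, 2974, 1560, 0 and 1606 CPM, and in rank 4 replicates 1, 3, 4 and 5 it was 2565, 3377, 2610 and 2536 CPM. The 0 was the library with a single fibroblast, and the ranges of the ranks overlapped. Dcn was seen in 43 of 50 fibroblasts (86%), or 70% with every cell thinned to 800 UMIs, against 2.13% of excitatory-class cells unthinned and 0.482% thinned (9749 of 9832 cells deep enough), at median depths of 1475 and 3316 UMIs.

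Slc6a13, a GABA and taurine transporter of leptomeningeal cells, stood at 2435 CPM (2136 to 2764) and in 43 cells. Its level was 2074, 5735, 5303, 2837 and 1478 CPM in rank 1 replicates 1 to 5 and 2052, 4425, 2366 and 1537 CPM in rank 4 replicates 1, 3, 4 and 5, so that high and low libraries were found in both ranks. Col1a2, a chain of type I collagen, was found in 44 cells at 1416 CPM (1191 to 1672) and ranged from 624 to 1958 CPM over 9 libraries. Col1a1, the other chain of that collagen, stood at 550 CPM in 33 cells, and Col3a1, of type III collagen, at 255 CPM in 18 cells. Lum, the proteoglycan lumican, stood at 632 CPM in 24 cells and ranged from 0 to 2212 CPM between libraries. Against all other kept cells these 6 genes and Igf2 were 105-fold (Col1a2) to 786-fold (Lum) higher, a spread the rule itself favoured.

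Of 24719 genes with a UMI in any kept cell, 195 were at least 10-fold higher in fibroblasts than in all other kept cells with at least 5 fibroblast UMIs, which is 0.789% of the genes and includes the 7 rule genes. The ratio is a description with no test, because the cells compared were chosen by their RNA. The 25 genes with the highest ratio outside the rule, among those with at least 200 CPM and UMIs in fibroblasts of at least 8 libraries, were called the leading genes. Together they made up 64132 CPM in fibroblasts against 769 CPM in all other kept cells, 3631 CPM in the pericyte class, 1288 CPM in the smooth muscle class and 833 CPM in the endothelial class.

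**Figure D1:**
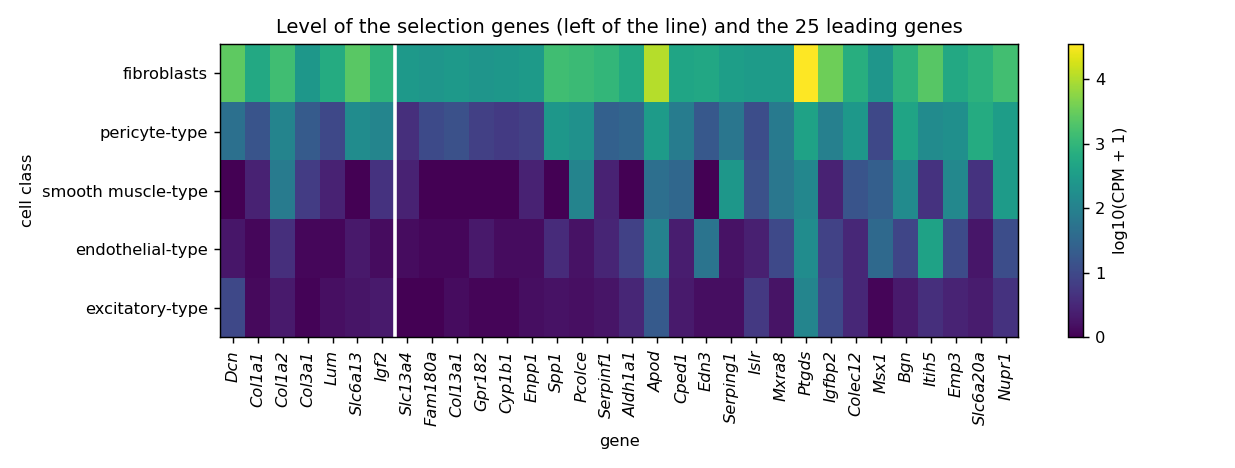
Level of the 7 selection genes (left of the white line) and the 25 leading genes (horizontal axis) in 5 cell classes (vertical axis), coloured by log10(CPM + 1). The fibroblast row is bright throughout, Ptgds (34899 CPM) and Apod (10994 CPM) stand out in it, and the pericyte row is the next brightest for Slc6a20a (634 CPM) and Bgn (444 CPM).

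Ptgds and Apod were the most abundant leading genes. Ptgds encodes prostaglandin D synthase, a lipid-binding enzyme of the cerebrospinal fluid, and stood at 34899 CPM (33740 to 36088), 76.1-fold above other kept cells. Apod encodes apolipoprotein D, a small lipid carrier, and stood at 10994 CPM (10348 to 11670), 120-fold above other kept cells. Apod had a UMI in every one of the 50 fibroblasts, with 1 UMI in the lowest cell, 13 in the median cell and 96 in the highest. With cells thinned to 800 UMIs it was seen in 98% of fibroblasts and 1.99% of excitatory-class cells, against 100% and 6.07% unthinned. Ptgds was seen in 74% of fibroblasts and 27.4% of excitatory-class cells, or 68% and 9.0% thinned, so a few Ptgds UMIs in a cell were not particular to fibroblasts.

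The promoters of these 2 genes are shown because their RNAs made up the largest part of the leading genes' level. They come from RefSeq on the GRCm38.p6 build, 250 bases before to 50 after the start of the gene, 5′ to 3′ on the gene's strand; Apod lies at chr16:31314759-31315058 and Ptgds at chr2:25469700-25469999, both on the minus strand.
Apod: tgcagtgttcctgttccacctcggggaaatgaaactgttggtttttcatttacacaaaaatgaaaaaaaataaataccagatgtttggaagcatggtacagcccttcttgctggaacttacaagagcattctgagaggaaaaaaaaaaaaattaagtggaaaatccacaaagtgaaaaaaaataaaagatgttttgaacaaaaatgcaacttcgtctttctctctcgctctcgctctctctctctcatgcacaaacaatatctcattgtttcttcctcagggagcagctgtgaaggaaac
Ptgds: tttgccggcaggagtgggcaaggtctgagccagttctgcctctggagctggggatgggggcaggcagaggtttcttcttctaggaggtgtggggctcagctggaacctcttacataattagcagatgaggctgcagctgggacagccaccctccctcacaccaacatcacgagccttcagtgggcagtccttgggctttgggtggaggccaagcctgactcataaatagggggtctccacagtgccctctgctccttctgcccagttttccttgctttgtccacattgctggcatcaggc
The Apod window was 37.3% G and C and the Ptgds window 57.7%. Neither held, on either strand, the letters TATAAA (the TATA box), TGTTTAC (a forkhead motif) or AGGTGTGA (a T-box motif), so no letters are in capitals. Of the 32 rule and leading genes, 26 had a promoter in the table and Dcn, Col1a1, Lum, Gpr182, Serping1 and Colec12 did not. TATAAA was in 4 of the 35 member promoters (11.4%), those of Col3a1, Col13a1, Spp1 and Emp3, against 13.6% of 32851 promoters. TGTTTAC was in 0 of 35 against 3.65%, and AGGTGTGA was in 1, that of Aldh1a1, against 1.28%; the motifs do not overlap one another in letters.

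Apod varied less between libraries than Ptgds. Its level was 19156, 11895, 12165, 2128 and 9379 CPM in rank 1 replicates 1 to 5 and 8912, 14555, 13541 and 8375 CPM in rank 4 replicates 1, 3, 4 and 5. The ranks overlapped, and the low value was again the single fibroblast of rank 1 replicate 4. The mean was 11123 ± 4746 CPM for Apod and 25263 ± 22850 CPM for Ptgds (SD, n = 9 libraries).

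Several other leading genes encode proteins of the extracellular matrix. Among the leading genes, Pcolce, an enhancer of procollagen processing, stood at 1274 CPM in 37 cells, 190-fold above other kept cells. Spp1, the matrix glycoprotein osteopontin, stood at 1427 CPM in 26 cells and was 198-fold higher. Bgn, the proteoglycan biglycan, stood at 866 CPM, 61.1-fold above other kept cells and 1.95-fold above the pericyte class. Itih5, a hyaluronan-binding matrix protein, stood at 2293 CPM in 43 cells. Serpinf1, which encodes the secreted factor PEDF, stood at 999 CPM in 34 cells, and Col13a1, a membrane collagen, at 285 CPM in 21 cells. Nupr1, a stress-responsive chromatin protein, stood at 1488 CPM in 40 cells. Fam180a, Gpr182, Enpp1, Cped1, Islr, Mxra8, Colec12 and Emp3 lay between 234 CPM (Gpr182) and 703 CPM (Colec12).

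Of the 14 fibrillar and other collagens, 6 were at least 10-fold higher in fibroblasts, against the 0.789% of all genes, and 3 of the list are rule genes. The 10-fold count needed at least 5 fibroblast UMIs, and 42.4% of all genes had any. Besides these, Col12a1 stood at 306 CPM (16.8-fold) and Col26a1 at 112 CPM (22.8-fold), while Col14a1 had 0 UMIs. Col6a1 stood at 91.7 CPM against 49.4 CPM in other kept cells.

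The basement membrane list had 11 of 16 members at least 10-fold higher, beside 0.789% of all genes. All 16 had a UMI, beside 42.4% of all genes. Lama1, a laminin chain of the pial basement membrane, stood at 285 CPM in 23 cells against 5.03 CPM in the pericyte class and 0.649 CPM in the endothelial class. Col15a1 stood at 224 CPM against 6.92 CPM in the pericyte class. The type IV collagens were shared with the vessel wall: Col4a1 stood at 357 CPM in fibroblasts, 298 CPM in the pericyte class and 274 CPM in the endothelial class. The list summed to 2955 CPM in fibroblasts, 1462 CPM in the pericyte class and 822 CPM in the endothelial class.

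The small leucine-rich proteoglycans, which bind collagen fibrils, had 7 of 10 members at least 10-fold higher, Dcn and Lum among them. For this list and the next ones the share over all genes was 0.789%. Prelp stood at 408 CPM in 26 cells. Aspn stood at 40.8 CPM in fibroblasts (4 UMIs in 2 cells), 15.7 CPM in other kept cells, 472 CPM in the pericyte class and 707 CPM in the smooth muscle class. Epyc and Kera had 0 UMIs in fibroblasts. Of 19 elastic fibre genes and glycoproteins, 7 were at least 10-fold higher, with Mfap4 at 173 CPM, Efemp1 at 153 CPM and Emilin1 at 112 CPM. In the same list 5 genes lay below their level in other kept cells, beside 78.4% of all genes. Fn1, the matrix protein fibronectin, had 0 UMIs in fibroblasts against 51.5 CPM in other kept cells; Dpt, Mfap5 and Smoc2 also had 0 UMIs. Sparc, a collagen-binding glycoprotein, stood at 1488 CPM in fibroblasts and 1284 CPM in the endothelial class. Of 18 matrix enzymes and inhibitors only Pcolce and Ctsk, the protease cathepsin K (153 CPM, 47.9-fold), were at least 10-fold higher. Serpinh1, the collagen chaperone, stood at 520 CPM in fibroblasts and 627 CPM in the pericyte class.

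Of 24 solute transporters 9 were at least 10-fold higher, the rule gene Slc6a13 among them, beside 0.789% of all genes. Slc22a6, an organic anion transporter, stood at 469 CPM in 27 cells, 652-fold above other kept cells and against 19.5 CPM in the pericyte class. Slc13a4, a sulfate transporter, stood at 285 CPM in 19 cells and had the highest ratio of the leading genes, 964-fold. Slc7a11, the cystine and glutamate exchanger, stood at 2435 CPM in 44 cells, against 92.5 CPM in the pericyte class and 92.4 CPM in other kept cells. Slc6a20a, an imino acid transporter, stood at 825 CPM in fibroblasts and 634 CPM in the pericyte class. Slc26a2, Slc26a7, Abcc4 and Slc47a1 had 0 UMIs.

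Of the 13 retinoid genes, 3 were at least 10-fold higher, beside 0.789% of all genes. Among the 3 were Aldh1a1 and Aldh1a2, which make retinoic acid. Aldh1a1 stood at 571 CPM in 25 cells and Aldh1a2 at 204 CPM in 15 cells. Aldh1a3, Crabp1, Cyp26b1 and Stra6 had 0 UMIs.

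Growth factor genes had 6 of 26 members at least 10-fold higher, the rule gene Igf2 among them, beside 0.789% of all genes. Igfbp2, which binds insulin-like growth factors, stood at 3454 CPM in 46 cells, 75.8-fold above other kept cells. Among the bone morphogenetic proteins, Bmp7 stood at 346 CPM in 23 cells and Bmp6 at 153 CPM in 14 cells. Edn3, the peptide endothelin 3, stood at 520 CPM in 27 cells. Pdgfra stood at 479 CPM against 42.2 CPM in the pericyte class, and Pdgfrb, which the rule limits, at 255 CPM against 888 CPM in that class. Igfbp7 stood at 214 CPM in fibroblasts, below the 2635 CPM of the pericyte class.

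Transcription factors of meningeal mesenchyme had 7 of 23 measured members at least 10-fold higher, beside 0.789% of all genes. Zic1 stood at 479 CPM in 26 cells, Foxc1, required for meningeal development, at 387 CPM in 22 cells, Tbx18 at 296 CPM in 19 cells and Zic4 at 245 CPM in 18 cells. Each of these also stood at 93.1 to 394 CPM in the pericyte class. Msx1, a homeobox gene among the leading genes, stood at 245 CPM in 16 cells. Six2, Twist2, Foxc2 and Meox1 had 0 UMIs.

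Genes that separate the layers of the meninges gave a mixed picture. Of 11 measured arachnoid and barrier genes only Ptgds and Aldh1a2 were at least 10-fold higher. The share over all genes was 0.789%, for this list and the next. Cldn11, a tight junction protein of the arachnoid barrier and of myelin, had 9 UMIs in 7 cells, and Cdh1, Krt18, Wnt6 and Slc47a1 had 0 UMIs. Of 16 pial and dural genes 5 were at least 10-fold higher, with S100a6 at 815 CPM in 30 cells, Lama1 at 285 CPM, Cyp1b1 at 255 CPM, Gjb2, a connexin of leptomeningeal gap junctions, at 194 CPM and Col18a1 at 112 CPM. Ngfr, Fxyd5, Dkk2 and Alpl had 0 UMIs.

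Complement and immune genes had 2 of 26 measured members at least 10-fold higher, beside 0.789% of all genes. Serping1, the C1 inhibitor (346 CPM, 81.4-fold), was among them. Serping1 stood at 252 CPM in the smooth muscle class and 58.5 CPM in the pericyte class. Cxcl12, a chemokine, stood at 1284 CPM in 39 cells, and at 1283 CPM in the endothelial class. C3, C7, Il6 and Ccl11 had 0 UMIs in fibroblasts.

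Immediate early genes, which dissociation and activity can induce, were low in most libraries. None of 13 was at least 10-fold higher and 12 lay below their level in other kept cells, beside 19383 of all 24719 genes. They summed to 1253 CPM in fibroblasts, 2056 CPM in other kept cells, 5150 CPM in the pericyte class, 9213 CPM in the smooth muscle class and 7563 CPM in the endothelial class. The fibroblasts of rank 4 replicate 3 held 36 of the 123 UMIs and stood at 4192 CPM, above the 3274 CPM of that library's other kept cells, and those of rank 1 replicate 5 at 1670 CPM against 1554 CPM. In the other 7 libraries with fibroblasts the list was lower in them, at 312 to 1418 CPM. Without rank 4 replicate 3 it summed to 971 CPM. Fos was found in 8 of 50 fibroblasts, and 1 cell of rank 4 replicate 3 held 15 of its 25 UMIs; Junb was found in 12. Heat shock genes summed to 3393 CPM in fibroblasts against 7997 CPM in the pericyte class, and glucocorticoid-responsive genes to 1620 CPM against 2104 CPM. Both lists had 0 members at least 10-fold higher.

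Ptgds varied widely among the fibroblasts. It had 10 or more UMIs in 24 cells (median 71, lowest 12, highest 1123) and at most 5 in the other 26, of which 13 had 0. This division was chosen after its values were seen. The 5 highest cells held 62.8% of the 3425 Ptgds UMIs. By library, the level was 63446, 425, 14036, 709 and 30451 CPM in rank 1 replicates 1 to 5, and 49082, 3726, 42826 and 22666 CPM in rank 4 replicates 1, 3, 4 and 5. Low and high libraries were found in both ranks: all 4 cells of rank 1 replicate 2 had at most 1 Ptgds UMI, and both cells of rank 1 replicate 1 had at least 240.

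**Figure D2:**
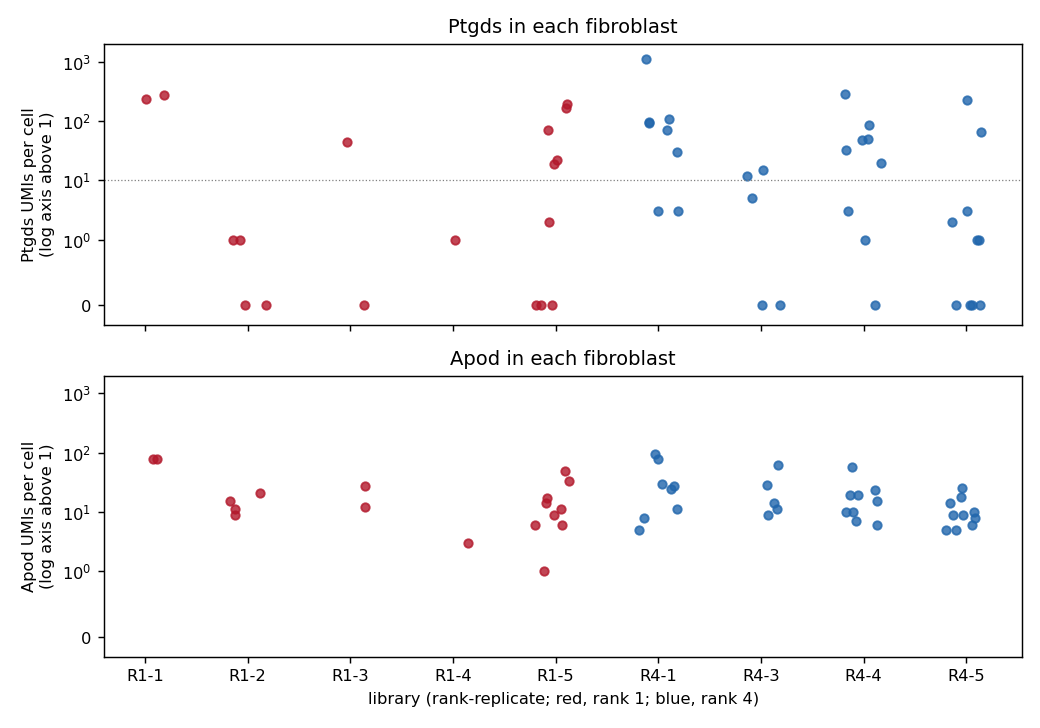
UMIs of Ptgds (upper panel) and Apod (lower panel) in each fibroblast (1 point), by library, with a linear axis up to 1 and a log axis above it. Ptgds runs from 0 to 1123 with a gap between 5 and 12 around the dotted line at 10, while Apod runs from 1 to 96 with no cell at 0.

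The high and low Ptgds cells were compared as summed levels with Ptgds left out of the totals, as a description. Median depth was 1713 UMIs in the high cells and 1252 UMIs in the low cells, and its part in the division was not tested. Slc13a4 stood at 409 CPM (21 UMIs) in the high cells and 161 CPM (7 UMIs) in the low cells. It was higher in the high cells in 5 of the 6 libraries that held both. Aldh1a2 stood at 312 and 92.2 CPM (16 and 4 UMIs) and Cped1 at 623 and 300 CPM (32 and 13 UMIs). Both also had 5 of 6 libraries, a count that Dcn, Col1a2 and Edn3 shared. The 4 low-cell Aldh1a2 UMIs all came from rank 1 replicate 2, which held no high cell, so the Aldh1a2 count rests on few UMIs. In the other direction, Bgn stood at 604 CPM in the high cells and 1245 CPM in the low cells, Spp1 at 1052 and 1982 CPM, and Nupr1 at 1091 and 2074 CPM, each higher in the high cells in 2 of 6 libraries. That count was found for 15 of the 35 genes compared and does not set them apart. Apod (11086 and 11754 CPM), Dcn (2883 and 2535 CPM) and Igfbp2 (3351 and 3849 CPM) differed by less between them in level, with Apod higher in the high cells in 1 of 6 libraries.

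Igf2, the insulin-like growth factor 2 gene and a gene of the rule, followed the file version. Its level was 0, 425, 0, 0 and 1927 CPM in rank 1 replicates 1 to 5 and 0, 116, 2447 and 1844 CPM in rank 4 replicates 1, 3, 4 and 5. In the 3.1.0 libraries it had 3 UMIs in 2 of 21 fibroblasts, and in the 4.0.0 libraries 84 UMIs in 27 of 29. Over all other kept cells it stood at 0.0550 ± 0.0664 CPM (SD, n = 6 libraries) and 6.95 ± 1.61 CPM (SD, n = 4 libraries). The libraries of the 2 versions did not overlap in these cells. No test is given, because Igf2 is a gene of the rule and its division by version was seen before it was described.

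**Figure D3:**
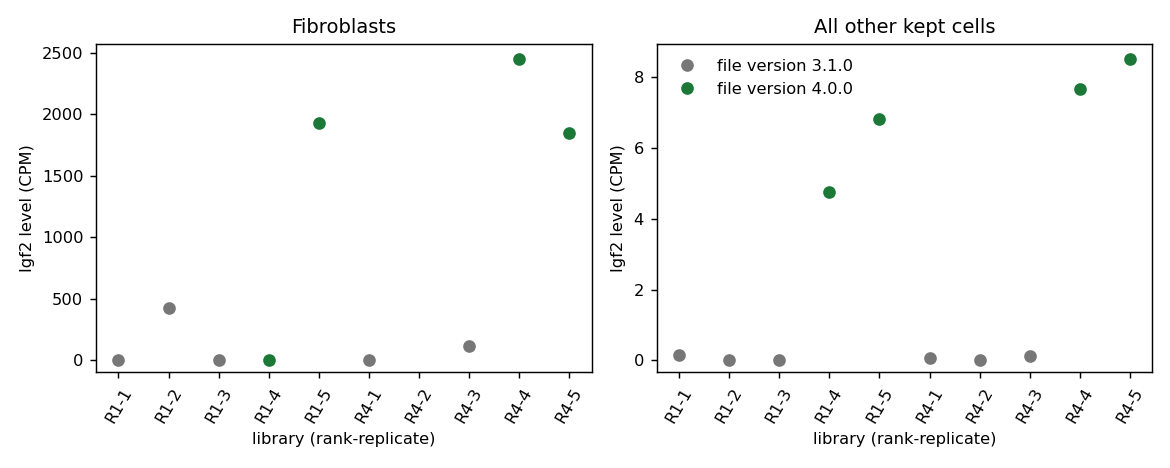
Igf2 level in CPM by library in fibroblasts (left) and in all other kept cells (right), coloured by the version in the file header. In other kept cells every 4.0.0 library lies above every 3.1.0 library; in fibroblasts the single cell of rank 1 replicate 4 is the 4.0.0 library at 0.

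The 3.1.0 gene list also held Gm49394, which in GENCODE M21 spans chromosome 7, 142650769 to 142669942, on the minus strand, over Igf2 at 142650766 to 142666816 on the same strand. It had 0 UMIs in every 3.1.0 library and was not in the 4.0.0 list. Version and rank were balanced, since replicates of the same number in both ranks had the same version. Without Igf2 in the marker sum, fibroblasts numbered 2, 4, 2, 1 and 7 in rank 1 replicates 1 to 5 and 8, 0, 5, 6 and 8 in rank 4 replicates 1 to 5, so the losses fell in the 4.0.0 libraries.

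The study asked how rank relates to this cortex, and here the share of fibroblasts was compared between the ranks. Fibroblasts numbered 2, 4, 2, 1 and 9 in rank 1 replicates 1 to 5 and 8, 0, 5, 9 and 10 in rank 4 replicates 1 to 5. As shares of kept cells these were 0.0407, 0.203, 0.137, 0.0495 and 0.115% in rank 1 and 0.163, 0, 0.133, 0.140 and 0.0728% in rank 4. The 0 of 1740 cells in rank 4 replicate 2 allows a share of up to 0.172% at 3 counts, and the exact interval reaches 0.212%, both for counting error only. The means were 0.109 ± 0.0669% in rank 1 and 0.102 ± 0.0658% in rank 4 (SD, n = 5 each), and the ranges overlapped. The difference of 0.00729 percentage points was smaller than the spread between libraries (two-sided exact permutation p = 0.881, adjusted p = 0.881 over 3 comparisons, smallest p possible 0.00794). Rank 1 was higher in 3 of 5 same-numbered pairs, and the direction turned without rank 1 replicate 2 (-0.0163) or without rank 4 replicate 2 (-0.0181).

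**Figure D4:**
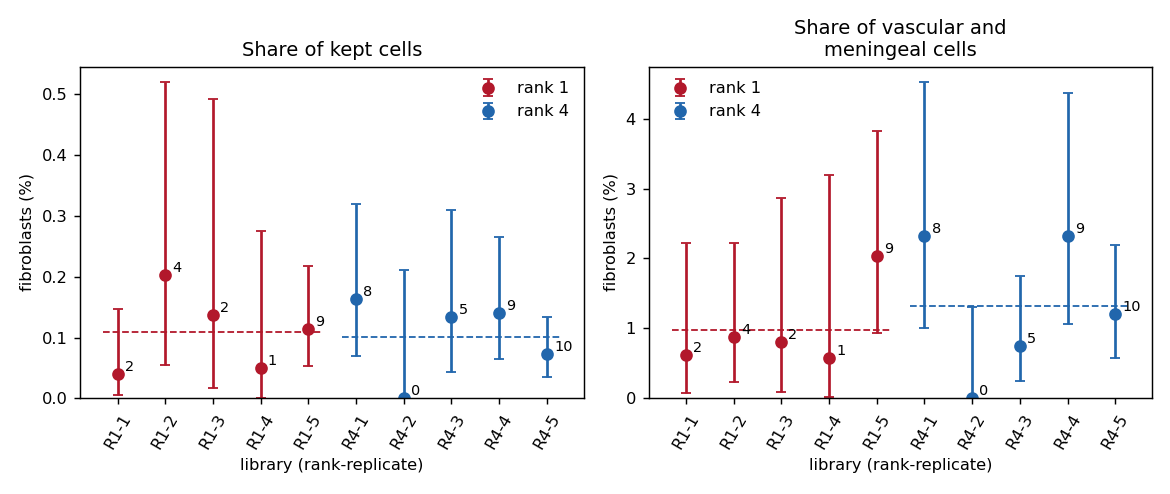
Fibroblasts in percent of kept cells (left) and of fibroblasts plus endothelial, pericyte and smooth muscle classes (right) for each library, with 95% exact binomial intervals, the number of fibroblasts beside each point and the rank mean as a dashed line. The intervals overlap in both panels, and the rank means of 0.109 and 0.102% nearly coincide on the left.

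Fibroblasts were also set against the cells of the vessel wall and meninges alone, so that a library rich in vessels does not count as rich in fibroblasts. The shares were 0.619, 0.875, 0.8, 0.581 and 2.03% in rank 1 replicates 1 to 5 and 2.32, 0, 0.753, 2.33 and 1.20% in rank 4. The means were 0.981 ± 0.600% and 1.32 ± 1.01% (SD, n = 5 each), and the difference of -0.338 percentage points did not exceed the spread (exact permutation p = 0.571, adjusted p = 0.881). Rank 1 was the higher in 3 of 5 same-numbered pairs, against the direction of the means. Smooth muscle-class cells ranged from 2 to 106 per library and were most numerous in rank 1 replicate 2 (106) and rank 4 replicate 3 (58), with fibroblast shares of 0.875 and 0.753%; their part in the share was not tested. Median UMIs per fibroblast could be compared only between rank 1 replicate 5 (1568) and 4 rank 4 libraries (3488, 1249, 1318 and 1248.5), a comparison with 1 rank 1 library that could not pass (exact permutation p = 0.8, smallest possible 0.4). How many fibroblasts the tissue held and how many the digestion released cannot be told apart in these shares.

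Gene expression of fibroblasts was compared over the 8 libraries with at least 2 fibroblasts, 4 per rank, because the planned minimum of 5 or 10 cells left too few rank 1 libraries. Of 168 genes tested, 0 passed (0% of those tested; edgeR quasi-likelihood test with Benjamini-Hochberg adjustment, smallest adjusted p = 0.968), 2 had an unadjusted p under 0.05, and DESeq2 called 0, with 1 at an unadjusted p under 0.05. In simulated sums of this size, 3 of 40 genes changed 4-fold were called, so most changes of that size could have been missed. The simulation gave every gene the same relative spread between libraries, held no version difference and changed only the more abundant genes. The rate for the real genes may therefore differ. The median log2 change of all tested genes was -0.12 (rank 1 over rank 4). The 168 genes include Dcn, Col1a2, Lum, Slc6a13 and Igf2, genes of the rule that were fitted with the whole table and are not read; of the other 163, 0 passed, with a median of -0.13.

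The 2 genes with an unadjusted p under 0.05 were Lgals1, the lectin galectin 1, and Aldoa, an enzyme of glycolysis. Lgals1 averaged 544 CPM in rank 1 and 1016 CPM in rank 4 (log2 change -1.17, SE 0.56, edgeR adjusted p = 0.968), and Aldoa 398 and 962 CPM (log2 change -1.09, SE 0.52). Not every gene was tested in all 18 alternatives. Lgals1 ranged from -1.79 to -0.98 over the 11 that tested it and Aldoa from -1.26 to -0.94 over 9. Neither gene had an unadjusted p under 0.05 with DESeq2 or with its size factors in edgeR. Those next by p included Lamp1 (1.10), Trf (0.99), Rps19 (-0.82), Bsg (0.92), Rps24 (-0.85), Serpinh1 (1.03) and Atp5j (-0.83), each given as a log2 change that did not pass. Over the alternatives that tested them, Trf ranged from 0.42 to 1.31 (18 alternatives) and Bsg from 0.64 to 1.33 (17). Serpinh1 ranged from 0.52 to 1.42 (17) and Rps24 from -1.56 to -0.54 (16).

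**Figure D5:**
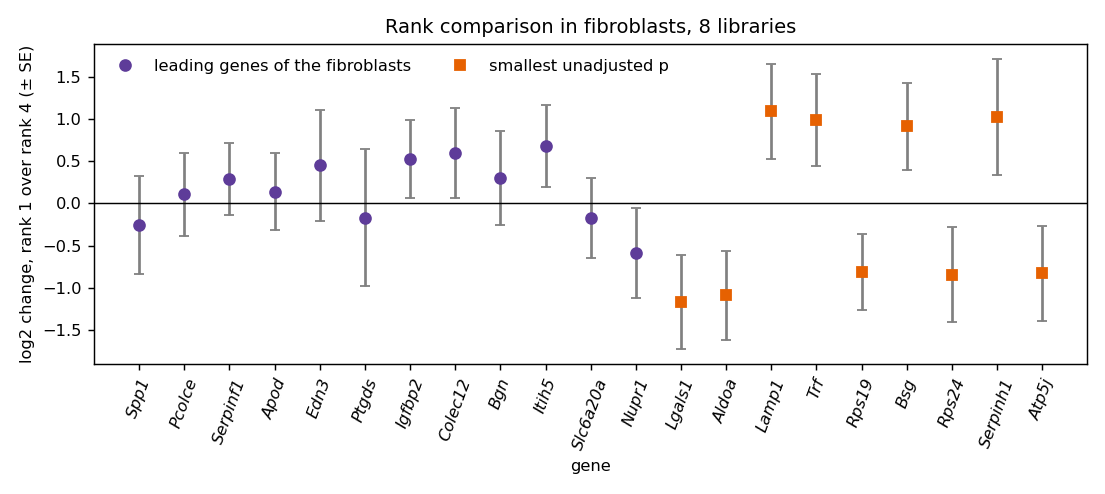
Log2 change, rank 1 over rank 4, with its SE (vertical axis) for the 12 leading genes that could be tested (circles) and for genes with the smallest unadjusted p (squares). None passed after adjustment; the leading genes lie between -0.59 (Nupr1) and 0.68 (Itih5).

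Among the leading genes 12 could be tested, 8 with a positive and 4 with a negative log2 change, a median of 0.22 and 0 that passed. Apod had a log2 change of 0.14 (SE 0.46), Ptgds of -0.17 (SE 0.81) and Igfbp2 of 0.53 (SE 0.46). Igfbp2 averaged 5594 CPM in rank 1 and 3307 CPM in rank 4, with libraries of both ranks overlapping. Of the transporters 5 were tested, with 0 passing and a median of 0.13; Slc7a11 had a log2 change of 0.57 (SE 0.46) and Slc22a8 of 0.92 (SE 0.66). Of the matrix enzymes and inhibitors 3 were tested (Serpinh1, Timp3 and Pcolce), with 0 passing. Outside the rule genes, the collagen, basement membrane, retinoid, transcription factor and immediate early gene lists had 0 members with enough UMIs to test.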

How the data were processed

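Raw UMI counts per gene and cell were deposited by the authors for 10 libraries. Per the submitters' processing notes they were made with Cell Ranger 4.0.0 on mm10; per the file headers 6 libraries were written by version 3.1.0 and 4 by version 4.0.0. Gene IDs, symbols and barcodes in the other deposited files are text with no unit. Counts were summed over fibroblasts per library and scaled to CPM; positions are from GENCODE M21. The members, gene lists and comparisons were chosen with earlier results of these data known. Named genes were those of the rule, the 25 leading genes, the most abundant members of each list and, in the rank comparison, the 10 with the smallest p outside the rule. Shares were compared by exact permutation over libraries with Benjamini-Hochberg adjustment over 3 comparisons, and expression with edgeR 4.0.16 (TMM, filterByExpr, file version as covariate; alternative DESeq2 1.42.0), tested on simulated data. Doublets were called with Scrublet in scanpy 1.11.5; in 2 libraries its threshold was replaced by the median of the others. Same-numbered libraries deviated together from their rank means (correlation 0.705 to 0.866 over 14792 genes in all 5 pairs, although pair 3 did not correlate best with its own number), and the numbers were taken to pair the libraries because every correlation was above 0.1. Same-numbered libraries also shared a file version, which these correlations cannot tell from a shared batch. No label names such a batch, so the pairing is an assumption. P-values measure the spread between pooled libraries. Results for some genes that these rules select are not reported here.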

Additional observations from a re-analysis of the deposited data

Results flagged for a closer look

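Among 68 groups of 4 or 5 libraries, 8 held a library that lay far from the others; chance alone flags about 1 in 20 such groups. Rank 1 replicate 5 had 2.03% fibroblasts among vascular and meningeal cells, and the nearest rank 1 library had 0.875%. Rank 1 replicate 3, with 2 fibroblasts, was low in Col1a2 (624 CPM) and high in Slc13a4 (936 CPM) and Fam180a (1248 CPM). Rank 1 replicate 2 was high in Bgn (2336 CPM, the nearest at 936 CPM). Rank 4 replicate 3 was high in Dcn (3377 CPM from 29 UMIs, the nearest at 2610 CPM) and low in Col3a1 (116 CPM, from 1 UMI). The Dcn level lay below the 4880 CPM of rank 1 replicate 1. Rank 4 replicate 4 was high in Cyp1b1 (489 CPM). Col1a2, Dcn and Col3a1 are genes of the rule that chose the cells, so their flags are description only. Several of these levels rest on 1 to 3 UMIs, and no explanation was tested.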

How the results depend on the processing

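No comparison of ranks passed its test in any alternative run, but median UMIs, with 1 rank 1 library, and the values within replicates 1 to 3 (smallest two-sided p 0.1) and within replicates 4 and 5 (0.333) could not have passed. The share of kept cells, 0.00729 percentage points higher in rank 1, was 0.0333 higher with cells thinned to 1000 UMIs and turned to -0.0591 with at least 800 genes and at most 10% mitochondrial UMIs (the share of vascular and meningeal cells moved to -1.53 there, exact permutation p = 0.206), to -0.00616 with a marker sum of at least 10 and to -0.0242 within replicates 4 and 5 (exact permutation p = 0.667). Leaving out 1 library each gave -0.0181 to 0.0244 for it, -0.668 to -0.0862 for the share of vascular and meningeal cells and -450.3 to 296 for median UMIs, which turned to 284.75 within replicates 4 and 5; the cause was not tested. With the replicate block (sign changes of the 5 paired differences, smallest possible p 0.0625, so that no share could pass) the exact permutation p was 0.938 for the share of kept cells (difference 0.00729) and 0.6875 for the other share (-0.338), and the paired edgeR fit called 0 of 166 genes. The paired edgeR fit thus changed no call. In the expression comparison, all 18 alternatives called 0 genes, with 90 to 1877 tested; without a filter beyond 10 counts 60 had an unadjusted p under 0.05, and the smallest adjusted p was 0.594, without rank 1 replicate 1. The count of 195 genes at least 10-fold higher ranged from 151 to 197. The alternatives with at least 2 fibroblasts per library, without Igf2, by file version and by Ptgds were chosen after seeing the data. The planned edgeR fit with at least 10 or 5 fibroblasts per library was not run, nor were its alternatives. The largest rank 1 count was 9 fibroblasts, in replicate 5, which was under 10 and was the only rank 1 count of at least 5. Over the 50 cells 3 UMIs correspond to 30.6 CPM, and levels below that rest on fewer counts.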
